A study of Homo sapiens with 5 samples.

Results

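Binding sites of ZBTB7A in VCaP cells grown in full serum were set against those in cells kept in hormone-depleted serum and given the androgen dihydrotestosterone (DHT). The members are all peaks on chromosomes 1 to 22 and X in the list from full serum (FBS, 123651 peaks, 1 library) and in the list from DHT (33236 peaks, 2 libraries behind 1 list), which is 156887 of the 196770 peaks of the series. Each DHT peak was paired with the FBS peak that overlapped it by the most bases, at least 1 bp. VCaP is an established line from a prostate cancer metastasis that responds to androgens. FBS cells grew with 10% full serum. DHT cells were kept with 5% hormone-depleted serum and exposed to 10 nM DHT over 4 hours. The vehicle list of 36674 peaks, from 2 libraries in the same depleted serum, is called CSS and serves as a reference. The labels give all libraries the same treatment text, so that FBS cells had no added DHT was taken from their culture label and the stated design. The libraries were made with an antibody against ZBTB7A by chromatin immunoprecipitation and sequencing (ChIP-seq).

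ZBTB7A, also called LRF or Pokemon, belongs to a family of transcription factors with a BTB domain, through which they dimerise and recruit corepressors, and zinc fingers that contact DNA. DHT is the most potent natural androgen, the class of steroid hormones on which prostate cells depend. Full serum carries steroid hormones among many other factors, whereas depleted serum has most of its steroids removed. FBS and DHT therefore differ in the kind of serum, its amount and the hormone added. They also differ in the number of libraries and, as given below, in depth and fold enrichment. None of these can be told apart. With 1 list per condition there was no spread between replicates, so no difference was tested and no p-value is given. Intervals are exact 95% Clopper-Pearson intervals for shares and exact conditional binomial intervals for ratios of shares. They cover counting error only.

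The lists differed in depth, as read from the peaks themselves. This reading takes the background from the tags of the same ChIP libraries, without a scaled control. The labels do not state the control, so depth and local background here rest on that assumption. A peak's deposited fold enrichment and −log10 p together fix the number of fragments stacked at its summit and the background it was judged against. With whole fragments set as a condition, a solution was found for 100% of the peaks in each list. The genome-wide background was then 9.69 sequenced tags per 10 kb in DHT, 13.4 in CSS and 60.2 in FBS. On this reading FBS was 6.21 times as deep as DHT and 4.51 times as deep as CSS. The lowest listed peak had 3 fragments at its summit in DHT and 6 in FBS, and the median was 8 and 12. FBS held 3.72 times as many peaks as DHT. Above the local background, the weakest listed DHT peak stood 14.1 genome backgrounds high and the weakest FBS peak 3.42. The longer list thus came with the deeper library and the lower bar, and serum, depth and bar cannot be told apart in the number of peaks.

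Under the pairing rule of 1 bp, about as many DHT sites had an FBS peak as lacked one. Of the DHT peaks, 16204 of 33236 (percent called 48.8, interval 48.2 to 49.3%) had an FBS partner. The share was 23.4% when an overlap had to cover 50% of each peak, and 27.8% when as many top FBS peaks were used as the DHT list holds. The partners under the 1 bp rule were 15424 different FBS peaks, of which 759 served 2 or more DHT peaks, and 1027 DHT peaks touched 2 or more FBS peaks. Seen from the other list, 13.2% of FBS peaks were touched by a DHT peak. A CSS partner, from a far shorter list, was present for 63.9% (63.3 to 64.4%) of the same DHT peaks. Paired and unpaired DHT peaks differed only slightly in rank, with median percentiles of 52.0 and 48.2 in their list by −log10 q, where 100 is strongest. They differed more in width, 280 against 229 bp, and in the tags within 10 kb, 2.79 against 1.65 times the genome-wide level. On the reading above, those tags include the peak's own, so a broad or tall peak raises the value. A CSS partner was present at 72.1% (71.4 to 72.8%) of the DHT peaks with an FBS partner and at 56.1% (55.3 to 56.8%) of those without. The unpaired DHT peaks were mostly not near misses. The nearest FBS summit lay a median of 7.75 kb away, and within 500 bp for 6.77% of them, and for the unpaired peaks of the top 10% these values were 9.60 kb and 1.37%.

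The presence of an FBS peak did not rise steadily with the rank of the DHT peak. The DHT list was split into 10 parts of 10 percentile points, part 1 the weakest. FBS partners were found for 43.4% (41.7 to 45.1%) of part 1 and 46.9% (45.2 to 48.6%) of part 10. The highest share was in part 5 (56.5%, 54.8 to 58.2%) and the lowest in part 4 (39.5%, 37.8 to 41.3%). The CSS share over the same parts went from 36.8% (35.2 to 38.5%) in part 1 to 95.5% (94.7 to 96.2%) in part 10. Of the 331 DHT peaks in the top 1%, 66.5% (61.1 to 71.5%) had an FBS partner.

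Among pairs, FBS peaks usually ranked higher in their list than DHT peaks did in theirs. The percentile was higher in FBS in 11354 of 16204 pairs (percent called 70.1, interval 69.4 to 70.8%), and the median change was 19.8 points, with quartiles at -7.00 and 47.1. It rose by at least 25 points in 7336 pairs (45.3%) and fell by at least 25 in 2558 (15.8%). FBS peaks touched by a DHT peak were more frequent at the strong end of the FBS list. Split in the same way, the FBS list had a DHT partner for 7.07% (6.67 to 7.48%) of the peaks in part 1, 17.4% (16.8 to 18.1%) in part 9 and 46.5% (45.6 to 47.4%) in part 10. When percentiles were taken among the paired peaks only, the median change was 2.48 points and 52.7% of pairs were higher in FBS. Ranked by fold enrichment in place of −log10 q, it was 6.07 points and 56.8%.

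The FBS percentile was nearly flat over the parts of the DHT list. In part 1 the median change was 70.7 points and 97.9% of pairs were higher in FBS. In part 10 it was -18.2 points and 29.6% were higher. A change from the lowest ranks can only be a rise and one from the highest can hardly be, so the percentile itself is the clearer value. The median FBS percentile was 76.3 in both of these parts, and it lay between 69.7 (part 4) and 85.9 (part 7) in the others. The CSS partners of the same DHT parts went from a median percentile of 49.1 in part 1 to 91.9 in part 10. Across the 16204 pairs, Spearman's rank correlation between the DHT and FBS values of −log10 q was 0.07, against 0.46 across the 21225 pairs of DHT with CSS. Pairs are not independent replicates, both sets of pairs share the DHT list, and FBS and CSS differ in depth. Pairs also called in CSS gave a rank correlation of 0.02 (11678 pairs) and pairs not called in CSS 0.03 (4526 pairs).

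**Figure D1:**
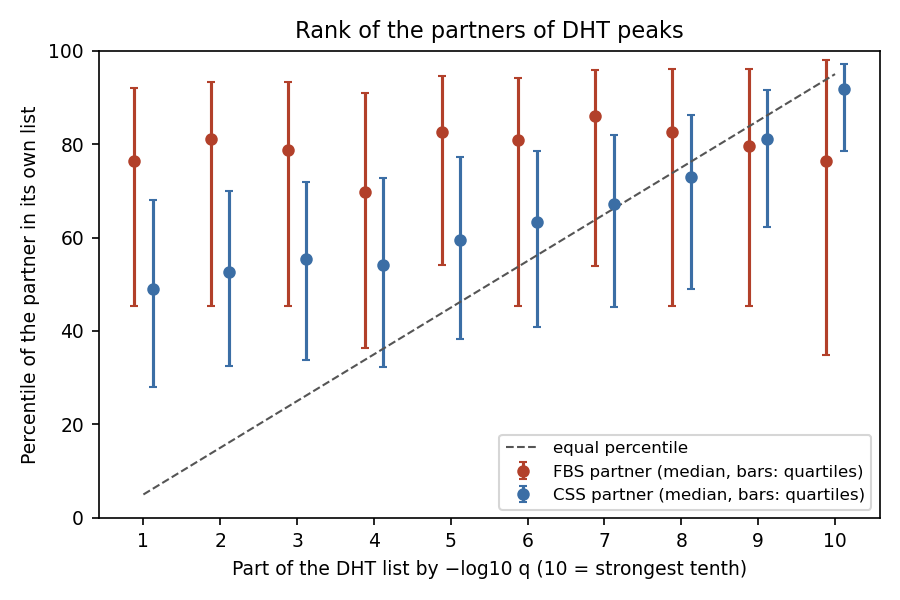
Percentile of the FBS partner (red) and of the CSS partner (blue) in its own list, by part of the DHT list from the weakest (1) to the strongest (10). Points are medians, bars run between the quartiles and the dashed line marks equal percentiles. FBS medians stayed between 69.7 and 85.9, while CSS medians went from 49.1 to 91.9.

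The strongest DHT peaks had FBS partners spread over the whole FBS list. Of the 1552 pairs from the top 10% of the DHT list, 40.8% had an FBS partner in the top 10% of FBS and 19.0% one in its top 1%. At the other end 13.7% had a partner in the weakest 25% of FBS. The quartiles of the FBS percentile were 34.9 and 98.0 here, wider apart than the 78.5 and 97.1 of the CSS partners. Among pairs from the top 1% of DHT, 51.8% (114 of 220) had an FBS partner in its top 1%, and the rank correlation was 0.54, against 0.51 for the 327 pairs with CSS. Over the top 10% of DHT, it was 0.17 with FBS and 0.34 with CSS. The FBS value was thus close to the CSS value in the top 1% and below it over the wider range. The top 1% includes leading pairs, named below, that lie in stretches of very dense tags.

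Counted in fragments, the strongest DHT sites that had an FBS partner were about as tall in full serum as in DHT. The FBS library was 6.21 times as deep by the recovered background. Peaks without an FBS partner, 1755 in the top 10% of DHT, do not enter these values. Over all pairs the median was 8 fragments at the DHT summit and 18 at the FBS summit, and the median ratio within a pair was 2.20 (quartiles 1.57 and 2.95). FBS had more fragments in 89.4% of pairs. In part 10 of the DHT list the medians were 18 in DHT and 14 in FBS, the median ratio within a pair was 1.0, and FBS had more in 46.5% of pairs, against 99.9% in part 1. The median of the FBS partner lay between 14 and 20 in each part. That of the CSS partner went from 8 in part 1 to 16 in part 10.

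Scaled to the genome background of each list, FBS partners stood far lower. The fragments above local background were 40.4 genome backgrounds in DHT and 11.6 in FBS at the median pair, and the median ratio within a pair was 0.293 (quartiles 0.206 and 0.397). No DHT peak below 14.1 was listed, so the direction is partly fixed by the higher bar of the shallow DHT library. In part 10 the DHT median was 86.8 and the FBS median 9.32. The CSS partners of that part, from a list closer to DHT in depth, had a median of 58.9. In the top 1% the values were 159 in DHT and 26.4 in FBS, and 0 of 220 pairs were higher in FBS. These peaks were picked by their DHT values, which bears on the ratios. In the top 10% the median ratio within a pair was 0.131 over 1552 pairs with FBS. With CSS it was 0.747 over 3158 pairs, so the sets of pairs differ. Median fold enrichment over the whole lists was 4.56 in FBS, 5.58 in CSS and 5.71 in DHT. Its part in these ratios was not tested.

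**Figure D2:**
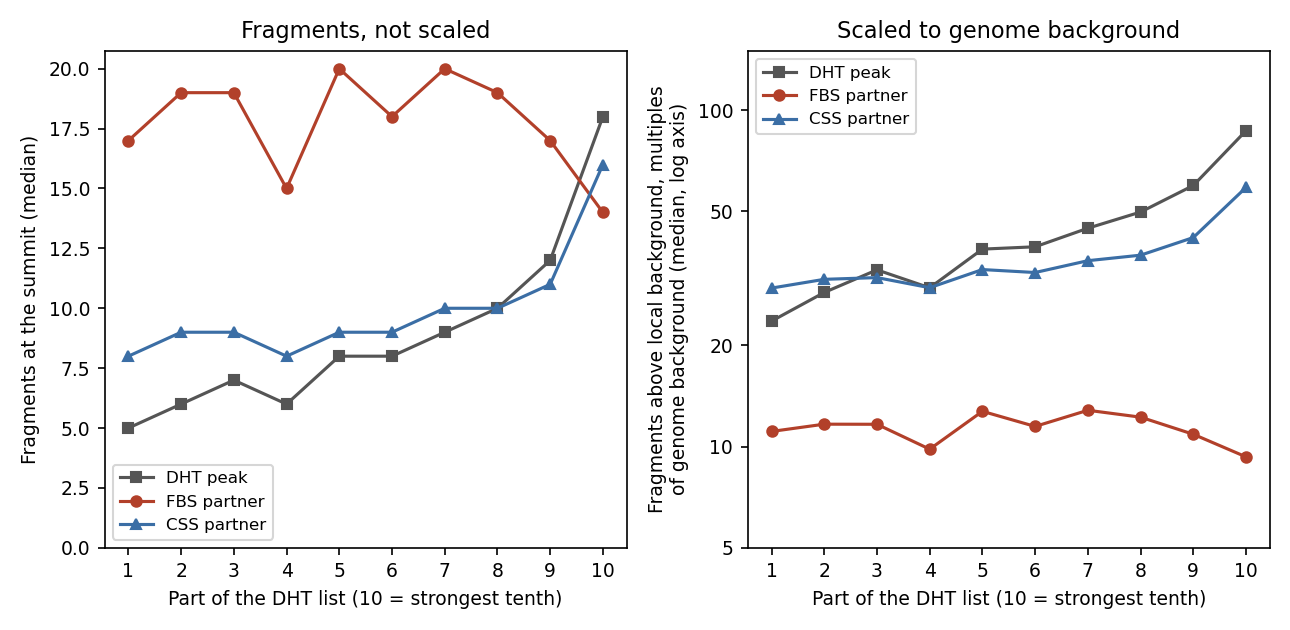
Median fragments at the summit for DHT peaks (grey), their FBS partners (red) and their CSS partners (blue), by part of the DHT list; DHT and FBS are from pairs with FBS, CSS from pairs with CSS. The left panel gives fragments as counted and the right panel, on a log axis, fragments above local background in multiples of the genome background. In part 10 the DHT median of 18 is above the FBS median of 14, and scaled values are 86.8 and 9.32.

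Among pairs, FBS peaks were wider than their DHT partners except at the widest DHT sites. Over the whole lists the median width was nearly the same, 249 bp in DHT and 258 bp in FBS. FBS peaks with a DHT partner had a median of 402 bp and those without 250 bp, so the pairs hold the wider FBS peaks. Over pairs the median DHT peak measured 280 bp and its partner 426 bp, with a median ratio of 1.37 (quartiles 0.986 and 2.13). FBS was wider in 74.1% of pairs and at least 2 times as wide in 28.4%. The narrowest listed width was 198 bp in DHT and 215 bp in FBS. Of the peaks, 22.9% of DHT and 22.5% of FBS sat at it. Over the 12628 pairs in which both peaks were wider than that, the ratio was 1.37 as well. For CSS partners the median ratio was 1.0 and 50.4% were wider. The ratio fell from 1.88 in part 1 of the DHT list to 0.967 in part 10. The DHT width divides this ratio, and its median in part 1 was the minimum of 198 bp, so part of the fall was fixed in advance. The rank correlation of the widths was 0.24 with FBS and 0.50 with CSS.

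The share with an FBS partner rose with DHT width and then fell. Peaks at the minimum width had an FBS partner in 34.7% of cases (33.6 to 35.8%), and the partner had a median width of 354 bp. Peaks from 400 to 699 bp were those most often seen in full serum, with 70.4% (68.6 to 72.2%) from 400 to 499 bp and 71.6% (69.7 to 73.5%) from 500 to 699 bp, and their partners had median percentiles of 90.4 and 91.6. At 1000 bp or more the share was 55.5% (50.7 to 60.2%), the FBS partner was 384.5 bp wide at the median against 1177 bp for the DHT peak, and its median percentile was 45.4. All 447 of these wide DHT peaks had a CSS partner, with a lower bound of 99.2%, a width ratio of 0.992 and a median percentile of 97.3. The FBS percentiles of the 248 pairs were spread widely, with quartiles at 21.0 and 92.0, 27.0% in the top 10% of FBS and 25.8% in its weakest 25%.

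The same rise and fall was present within the top 10% of DHT. Peaks under 300 bp wide had an FBS partner in 32.9% of cases (30.3 to 35.6%), with a median FBS percentile of 45.4. Peaks of 400 to 499 bp had one in 58.7% (53.0 to 64.2%), at a median percentile of 96.0. Peaks of 1000 bp or more had one in 51.8% (45.8 to 57.7%), at 39.8. The tags within 10 kb went with width in DHT, at 1.75, 5.68 and 12.9 times the genome-wide level in these 3 classes. Around their FBS partners they were at the genome-wide level, 3.17 times and 1.53 times it. As these tags include the peak's own on that reading, they are not taken as independent of the width. The part of local density in these shares was not tested. The percentile of 45.4 that recurs is a tie, a −log10 q held in common by 12417 FBS peaks (10.04%) with a median of 10 summit fragments.

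**Figure D3:**
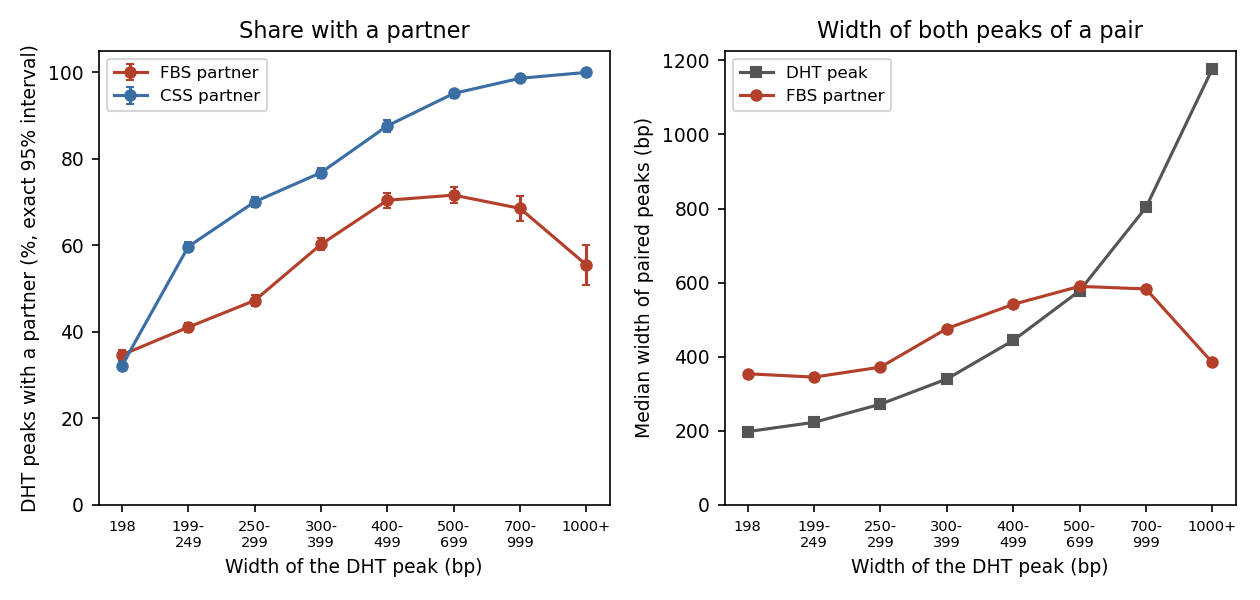
Left, share of DHT peaks with an FBS (red) or CSS (blue) partner by width of the DHT peak, with exact 95% intervals; right, median width of the DHT peak (grey) and of its FBS partner (red) in pairs. The FBS share peaks at 71.6% for 500 to 699 bp and is 55.5% at 1000 bp or more, where the FBS partner is 384.5 bp wide against 1177 bp.

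Local density of tags went with both the presence and the rank of the FBS peak. Among DHT peaks judged against the genome-wide background, 27.4% (25.9 to 29.0%) had an FBS partner. Where the tags within 10 kb were 3 to 5 times that level, 68.7% (67.5 to 69.9%) had one, and at 10 times or more 51.6% (49.2 to 54.1%). The CSS share over these classes was 36.5%, 74.5% and 90.2%. The median FBS percentile was 45.4, 87.8 and 88.4. Of the measures compared across pairs, the local background was the most alike in DHT and FBS, with a rank correlation of 0.67, against 0.35 for summit fragments. With CSS these were 0.91 and 0.65. Whether density sets where FBS peaks were called was not tested.

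Summits of a pair lay to either side of each other alike. The median distance was 112 bp (quartiles 49 and 221), and 25.6% of pairs had summits within 50 bp, 46.0% within 100 bp and 71.8% within 200 bp. The signed distance had a median of 2 bp, with quartiles at -109 and 116. With CSS the median distance was 64 bp, and 84.1% were within 200 bp. The DHT summit fell inside the FBS peak in 80.2% of pairs, and the FBS summit inside the DHT peak in 65.2%. In 36.4% of pairs the DHT peak lay wholly inside the FBS peak, and in 6.81% the reverse was true. Distance ran with width more than with rank. It was 97 bp for DHT peaks at the minimum width and 380 bp for those of 1000 bp or more, but 121 bp in part 1 and 98.5 bp in part 10 of the DHT list. Peaks of a pair must overlap, so their widths bound the distance and part of its rise with width was fixed in advance. The bound also bears on the comparison with CSS, whose partners had a median width of 295 bp against 426 bp for FBS. Within the top 10% of DHT, 75.9% of pairs with a DHT peak under 300 bp had summits within 100 bp. In 4.18% of pairs the summits were over 500 bp apart, so such a pair need not be 1 site.

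**Figure D4:**
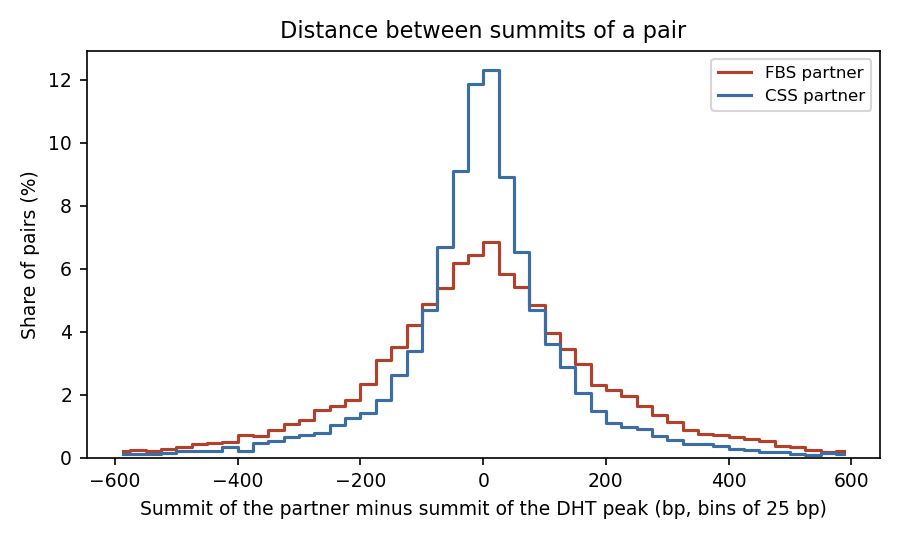
Distribution of the distance from the DHT summit to the summit of its FBS (red) or CSS (blue) partner, in bins of 25 bp, as a share of pairs. Both curves centre near 0, and the FBS curve is the broader, with a median absolute distance of 112 bp against 64 bp.

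Single sites show both ends of these ranges. Positions are on the hg19 build as in the lists, with a first base of 1. The strongest pair by mean percentile lay on chromosome 1 from 121483951 to 121485543 (DHT), next to the centromere, with 301 fragments in DHT and 388 in FBS. The pair ranked after it, on chromosome 3 from 196625524 to 196625917, had 96 and 129 fragments, summits 7 bp apart and the highest fold enrichments of the named pairs, 29.1 and 23.1. The other 3 lay on chromosome 19 from 27731859 to 27732408 (154 and 195 fragments) and on chromosome 10 from 42596776 to 42597301 (218 and 265) and from 42599448 to 42600378 (198 and 259). Of these 5 leaders, 4 lay in stretches whose tags within 10 kb were between 61.1 and 149 times the genome-wide level in DHT and between 14.0 and 34.4 times in FBS. The site on chromosome 3 had 12.2 and 3.57 times. Repeat-rich regions were kept, and no test tells binding from background at any of these 5 sites. In each of the 5 pairs FBS held fewer than 1.5 times the DHT fragments at 6.21 times the depth.

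The largest falls were of DHT peaks with 17 to 38 fragments at which full serum had 7 to 10. The DHT peak on chromosome 15 from 72061207 to 72061823 had 24 fragments (percentile 99.6) and its FBS partner 8 (percentile 0.607). On chromosome 6 from 171033281 to 171033923 there were 38 fragments in DHT and 10 in FBS. On chromosome 22 from 30039737 to 30040829 the DHT peak was 1093 bp wide with 25 fragments, and the FBS peak inside it 228 bp with 8. The other 2 lay on chromosome 1 from 12421443 to 12421739 (17 and 7 fragments) and on chromosome 3 from 116768951 to 116769917 (33 and 7). A CSS peak was present at 4 of these 5, the exception being the site on chromosome 1. Over part 10 of the DHT list, where these sites lie, the CSS share was 95.5%. All 5 falls had fewer fragments in the deeper library. The summits of these pairs lay 45 to 274 bp apart, so not each pair need be 1 site.

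The largest rises were at DHT peaks of 3 to 7 fragments. On chromosome 10 from 99894422 to 99894619 there were 3 fragments in DHT and 29 in FBS, and on chromosome 7 from 132937852 to 132938049 there were 3 and 26. The site on chromosome 19 from 51308265 to 51308462 had 4 and 43, and that on chromosome 8 from 17434889 to 17435232 had 3 and 26. On chromosome 5 from 111754880 to 111755077 there were 7 and 35, but the FBS peak was 1787 bp wide and its summit lay 1176 bp away, so this pair need not be 1 site. Of the 5 sites, only the last had a CSS peak. Over part 1 of the DHT list, where these sites lie, the CSS share was 36.8%.

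Some of the strongest DHT sites had no FBS peak. Each of the 5 strongest of these had a CSS peak, but so did 95.5% of all DHT peaks in part 10. The first, on chromosome 13 from 112170214 to 112170601, had 51 fragments and ranked 15 in the DHT list, with the nearest FBS summit 12.5 kb away. The others lay on chromosome 17 from 60098473 to 60098965 (29 fragments), chromosome 9 from 138993231 to 138993698 (40), chromosome 8 from 128642298 to 128642685 (26) and chromosome 6 from 33493058 to 33493494 (28). Their nearest FBS summits were 6.57 to 17.0 kb away.

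Of the 5 strongest FBS peaks with no DHT peak, the first 4 are not reported here. The fifth lay on chromosome 1 from 154946389 to 154946938. It had 109 fragments in a stretch with 13.9 times the genome-wide tags, no CSS peak, and the nearest DHT summit 3.905 kb away.

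The genome was then divided into windows of 1 Mb by summit, and the share of each list in a window was compared. A median window held 10 DHT and 39 FBS peaks. To make the lists equal in share, 20.8% of the FBS peaks would have to lie in other windows. With so few DHT peaks per window, counting scatter adds to this value and to the number of windows called below. Its part was not estimated. The unevenness was spread widely, and the 554 most uneven of 2887 windows made up 50% of the summed difference. Across windows the rank correlation was 0.71 between DHT and FBS counts and 0.88 between DHT and CSS counts. Of 2334 windows with enough peaks (at least 10 DHT and FBS peaks together, after scaling FBS counts to the length of the DHT list), the FBS share was at least 2-fold higher in 246 (percent called 10.5) and at least 2-fold lower in 205 (percent called 8.78). This balance was not stable: the counts were 280 higher and 365 lower with equal numbers of top peaks, and 180 and 77 with a minimum scaled count of 20. The lower count was 133, against 241 higher, at a −log10 q of at least 5. The windows with higher FBS share held 5.80% of DHT, 6.40% of CSS and 15.1% of FBS peaks. Those with lower share held 9.86% of DHT, 8.90% of CSS and 3.803% of FBS peaks. CSS, which did not enter the choice of windows, was close to DHT in both classes.

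**Figure D5:**
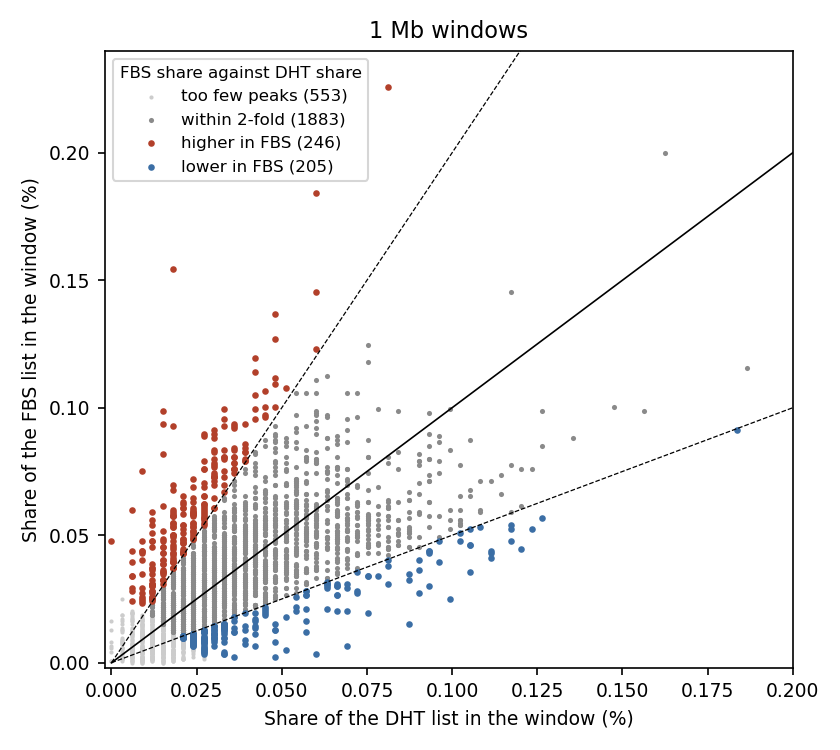
Share of the DHT list (x axis) and of the FBS list (y axis) in each 1 Mb window. The solid line marks equal shares and the dashed lines a 2-fold difference; red windows (246) are at least 2-fold higher and blue windows (205) at least 2-fold lower in FBS, and pale windows had too few peaks.

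Windows rich in FBS peaks were gathered on some chromosomes. Chromosome 8 held 41 of them among 120 windows with enough peaks, and chromosome 21 held 15 of 37 with 0 lower. Chromosome X held 1 higher and 19 lower of 61, chromosome 16 held 0 higher and 14 lower of 49, and chromosome 19 held 3 and 14 of 57. As a whole, chromosome 8 had an FBS to DHT ratio of shares of 1.47 (1.39 to 1.55), chromosome 21 1.38 (1.26 to 1.52), chromosome 16 0.600 (0.551 to 0.653) and chromosome X 0.554 (0.513 to 0.598). DHT peaks on chromosome X also had the fewest FBS partners, 30.9%, and those on chromosome 21 the most, 55.8%, as did those on chromosome 15. Called windows were mostly isolated: 138 of 179 runs of higher windows and 157 of 178 runs of lower windows were 1 window long.

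The 3 classes of windows were set by the counts, and the pairs inside them were described as well. DHT peaks had an FBS partner in 59.4% of cases (57.2 to 61.6%) in the windows with higher FBS share, 51.3% (50.7 to 52.0%) in those within 2-fold and 36.9% (35.2 to 38.6%) in those with lower share, and the counts that set the classes bear on these shares. The median percentile change was 17.7, 21.5 and 11.8 points in this order, the median width ratio 1.39, 1.41 and 1.16, and the summit distance 107, 117 and 102 bp. FBS peaks had median percentiles of 55.1, 45.4 and 45.4. Tags within 10 kb of FBS peaks were 1.10, 1.20 and 1.65 times the genome-wide level at the median. Across tested windows the rank correlation between the ratio of shares and this density was -0.07.

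Of the 10 windows with the largest differences in favour of FBS, 9 are described and the one ranked 2, which had the highest ratio of the 10, is not reported here. On chromosome 13 from 110000001 to 111000000 there were 27 DHT and 279 FBS peaks, a ratio of shares of 2.78 (1.87 to 4.29), and the adjoining window from 109000001 held 16 and 169 (2.84, 1.70 to 5.08). As background, the first of these holds IRS2, which relays insulin signals, and the collagen gene COL4A1, next to its partner COL4A2. On chromosome 6 from 20000001 to 21000000 there were 20 and 228 (3.06, 1.94 to 5.11), in a window that holds E2F3, a cell cycle transcription factor, and part of CDKAL1. Tags within 10 kb of the FBS peaks were 4.37 times the genome-wide level in the first of these windows, 1.78 times in the adjoining one and 2.73 times on chromosome 6, against 4.44, 2.63 and 2.79 times at the DHT peaks.

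The other 6 windows described lay on chromosomes 8, 9 and 17. On chromosome 8 they ran from 130000001 (5 DHT and 122 FBS peaks, 6.56, 2.73 to 20.6), 120000001 (5 and 116, 6.24, 2.60 to 19.6) and 71000001 (6 and 115, 5.15, 2.30 to 14.3). Here the FBS peaks sat near the genome-wide tag level, at 1.05, 1.19 and 1.03 times. On chromosome 17 from 28000001 there were 20 and 180 (2.42, 1.52 to 4.06), and on chromosome 9 from 111000001 and 114000001 there were 14 and 148 and 16 and 157. CSS counts in these 6 windows were 6, 7, 9, 24, 12 and 17, each within 4 of the DHT count.

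The largest difference towards DHT was on chromosome 11 from 64000001 to 65000000, with 61 DHT, 73 CSS and 113 FBS peaks (0.498, 0.362 to 0.691), and the adjoining window to 66000000 held 62, 68 and 143 (0.620, 0.457 to 0.849), which is within 2-fold. As background, the latter holds NEAT1 and MALAT1, which encode abundant nuclear long noncoding RNAs. Both windows lay in dense stretches, with tags within 10 kb at 12.4 and 10.3 times the genome-wide level for DHT peaks and 9.94 and 7.48 times for FBS peaks. The window ranked 2 was on chromosome 17 from 1000001 to 2000000 (40 DHT and 55 FBS peaks, 0.370, 0.242 to 0.570), and the adjoining first window of that chromosome, ranked 9, held 35 and 44. The window ranked 3 was on chromosome 9 from 136000001 (33 and 31, 0.252, 0.150 to 0.425). Ranked 4 was chromosome 8 from 7000001 to 8000000, where the beta-defensin genes lie in repeated copies, with 29 DHT, 11 CSS and 19 FBS peaks (0.176, 0.0933 to 0.325), the only one of these 10 windows in which CSS had under 1 in 2 of the DHT count. The remaining 4 lay on chromosome 1 from 1000001, 9 from 131000001, 19 from 50000001 and 17 from 80000001, with ratios between 0.370 and 0.448.

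Some runs of adjoining windows leaned the same way. Among the 5 longest in each direction, the lowest ratio was on chromosome 6 from 29000001 to 33000000, which holds the HLA genes of antigen presentation. It had 73 DHT, 85 CSS and 23 FBS peaks, a ratio of 0.0847 (0.0506 to 0.137). The longest run of lower FBS share was 5 windows on chromosome 19 from 20000001 to 25000000 (95 DHT, 85 CSS and 113 FBS peaks, 0.320, 0.241 to 0.425), a part of the genome known for clusters of zinc finger genes. The longest runs of higher share were 6 windows on chromosome 4 from 69000001 to 75000000 (57 DHT, 65 CSS and 525 FBS peaks, 2.48, 1.88 to 3.31) and 5 windows on chromosome 8 from 126000001 to 131000000 (47, 37 and 507, 2.90, 2.15 to 4.00). As extremes of many, these windows and runs have intervals that make no allowance for the choice.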

How the data were processed

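Data were ZBTB7A ChIP-seq peak lists in narrowPeak format, 1 per condition (DHT from 2 libraries, FBS from 1, CSS from 2). Per the submitters' processing notes, the processing involved MACS2 2.0.10.20131216, BWA 0.7.2-r351, SAMtools 0.1.18 and hg19, listed without roles. The control library and the joining of libraries were not stated in the labels or files. Values of each peak, deposited by the authors, are a fold enrichment (ratio), a −log10 p, a −log10 q, a score equal to the whole part of 10 times −log10 q, and a summit offset.

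Percentiles are mid-ranks of −log10 q over chromosomes 1 to 22 and X. Summit fragments and background, a step added after seeing the data, were solved from fold enrichment and −log10 p with MACS2's definitions (pseudocount 1, Poisson upper tail). Only whole fragments were searched, with the narrowest peak as fragment length. A solution was kept if its background was the genome-wide value or a whole number of tags in 10 kb (within 0.05). The genome-wide value was taken for 9.58% of DHT and 39.4% of FBS peaks. Every peak had such a solution, but the whole numbers are a condition of the method and not a result. The background was assumed to come from the same libraries, without a scaled control. Windows without a peak in one list were set at 3 counts for the ratio. Code was tested on simulated data. Named regions were the 5 strongest pairs, the 5 largest falls and rises among pairs in the top 5% of a list, the 5 strongest unpaired peaks of each list and the 10 most uneven windows in each direction; runs were added after their values were seen. Genes are named as background from general knowledge of hg19, not from an annotation, and 9 of 9 were on the named chromosome in the GRCh38 gene table. NEAT1, MALAT1 and the beta-defensin genes were named after the window was seen. Some of the regions chosen by this rule are not reported here. The planned sequence and gene comparisons were not run without an hg19 reference. The members and lists were chosen with earlier results of these data known. Computation used pandas 2.3.3 and numpy 2.4.6 under Python 3.11.15, with scipy 1.17.1 for intervals and matplotlib 3.10.9 for plots.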

Additional observations from a re-analysis of the deposited data

Results flagged for a closer look

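Peaks outside chromosomes 1 to 22 and X entered no comparison above, and their number is more than a count of 0 allows. There were 884 in DHT (2.59% of the list, 234 of them on chromosome Y) and 1217 in FBS (0.975%, 379 on chromosome Y). Of the DHT peaks there, 235 (26.6%) had an FBS partner. No test tells binding from background among them.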

How the results depend on the processing

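The median percentile change stayed above 0 and the median width ratio above 1 in each alternative run, but the balance of windows turned in one, and 36 of 48 values under alternatives moved beyond the interval or 1.5-fold range of the reported value. When an overlap had to cover 50% of each peak, 23.4% of DHT and 6.28% of FBS peaks were paired, the median percentile change was 10.4 points, 62.7% of pairs were higher in FBS, the width ratio was 1.15 and the summit distance 68 bp. With a −log10 q of at least 5 these were 34.6%, 12.5%, 26.6 points, 76.7%, 1.42 and 121 bp. With as many top FBS peaks as the DHT list holds they were 27.8%, 26.6%, 17.0 points, 70.5%, 1.74 and 131 bp. Ranked by fold enrichment, the change was 6.07 points and 56.8%; among paired peaks only, 2.48 points and 52.7%. For one-to-one pairs it was 17.2 points and 67.7%, with a width ratio of 1.32 and a distance of 100 bp. Over all sequences, 48.2% of DHT peaks were paired. Windows with higher and lower FBS share numbered 241 and 133 at a −log10 q of at least 5, 280 and 365 with equal numbers of peaks, 180 and 77 with a minimum scaled count of 20, and 412 and 250 of 2891 windows of 500 kb, so with equal numbers of peaks the lower ones were the more frequent. Fragment values were added after seeing the data: the ratios of scaled excess and of fragments were 0.262 and 2.0 with the 50% overlap, 0.287 and 2.14 at the stricter q, and 0.284 and 2.17 for one-to-one pairs. Beyond fewer peaks, stricter overlap or smaller windows, the cause was not tested. No paired analysis was possible because each condition has a single list, in which libraries with shared numbers cannot be separated or left out. DHT values rest on few fragments, a median of 8 per summit, so single ranks in its lower part are imprecise.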
